A study of Chlamydomonas reinhardtii with 18 samples.

Results

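PUF1 (Cre12.g528950) and PUF4 (Cre16.g649600) are Pumilio-family genes of the green alga Chlamydomonas reinhardtii, found here by their symbols, 2 genes of 17693 in the table. Transcript levels were measured by RNA-seq in 18 libraries, 6 groups of 3 replicates. Strain CC-4532 served as wild type (WT), and the mutant tpt10b, made in that strain, is labelled a knockout of the gene CreTPT10, which encodes a triose phosphate translocator. All groups shared TAP, an acetate medium, and low light (about 30 µmol photons m-2 s-1) until mid-log phase. Both genotypes were sampled then (0 h) and after 24 h and 48 h of complete darkness.

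Pumilio proteins carry a series of helical repeats that bind short elements in the 3′ untranslated regions of messenger RNAs. In yeast and animals they are known for repressing their targets by recruiting deadenylases, which shorten the poly(A) tail and lead to decapping and decay. Other Pumilio-like proteins of yeast and plants sit in the nucleolus and take part in ribosomal RNA processing. The files do not say to which kind PUF1 and PUF4 belong. Besides these genes the table names PUF2 (Cre17.g746647) and PUF3 (Cre12.g544700). The listed gene lengths are 2391 bp for PUF1, 2493 bp for PUF4, 2475 bp for PUF3 and 4143 bp for PUF2. They were taken as coding lengths because 94.4% of all listed lengths are multiples of 3. The locus names place PUF1 and PUF3 on chromosome 12 and PUF4 on chromosome 16.

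The unit is TPM, a transcript share scaled to a fixed total. It corrects for the listed length, so levels can be compared between genes as far as that length is right. A difference is given as a log2 ratio after adding 1 to each TPM, followed by its standard error from a limma fit over all 14731 genes that passed a filter on low values. PUF1, PUF4, PUF2 and PUF3 all passed it. Each library held 59603478 to 87965038 reads, recovered from TPM and the listed length. PUF1 was counted with 350 to 9222 reads per library and PUF4 with 542 to 6035. The locus assigned to CreTPT10 from background knowledge, Cre08.g379350, lay between 32.8 and 85.4 TPM in the WT libraries and between 1.28 and 8.28 in the tpt10b libraries. The 3 tpt10b 24 h libraries stood apart, with reads on 15490 to 16231 genes against 16316 to 16901 in the other libraries. The median of all genes was shifted between groups: tpt10b minus WT, it was 0.41 at 0 h, -0.23 at 24 h and 0.12 at 48 h on the log2 scale. Median-of-ratios rescaling, called rescaling here, moved these medians to -0.03, 0.04 and 0.01. In bulk RNA, fewer cells that use a gene and less RNA of it per cell cannot be told apart.

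Before darkness both genes were high in tpt10b, and this is how they were chosen. At 0 h PUF1 stood at 41.5, 34 and 30.8 TPM in tpt10b replicates 1 to 3 and at 15.6, 7.97 and 6.16 TPM in WT. PUF4 stood at 26.1, 23.0 and 22.3 TPM in tpt10b and at 9.81, 5.26 and 3.99 TPM in WT. Every tpt10b library lay above every WT library for both genes, and WT replicate 1 was the highest WT library for both. Means were 35.4 ± 5.52 TPM (SD, n = 3) against 9.90 ± 5.00 for PUF1 and 23.8 ± 2.00 against 6.35 ± 3.06 for PUF4. The log2 differences were 1.82 ± 0.27 for PUF1 and 1.83 ± 0.25 for PUF4, and 1.3 and 1.32 after rescaling. They ranked 9th and 8th among the 1622 genes that carried a symbol, passed the test, averaged 5 TPM or more in the higher group and lay higher in tpt10b without overlap. The choice took the 10 largest, with nad2 (1.74) as the last inside and PFH9 (1.74) as the first outside. No test is given, since these values chose the genes, and among all genes 50.8% were called higher at 0 h, 9.19% lower, and 63.6% were higher without overlap.

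**Figure D1:**
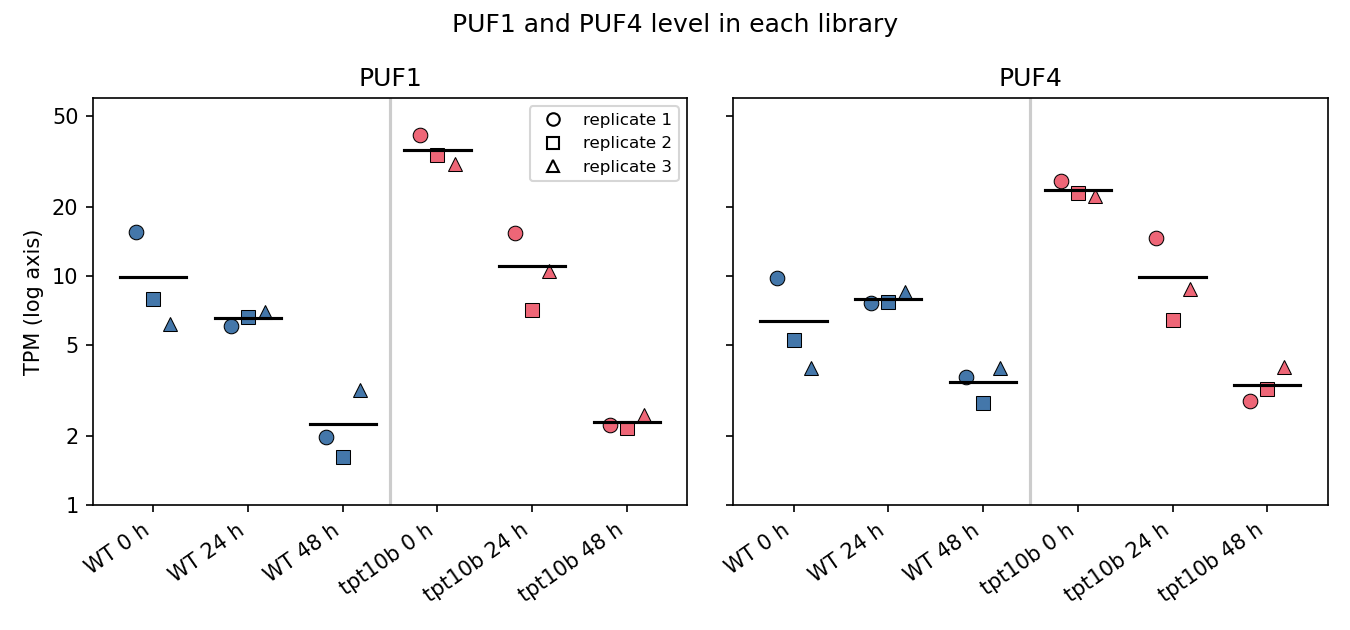
TPM of PUF1 (left) and PUF4 (right) on a log axis in each of the 18 libraries, by genotype and hours of darkness, with WT in blue and tpt10b in red. Symbols mark replicates and lines the mean of 3 libraries. The highest group is tpt10b at 0 h for both genes, and both genotypes lie under 5 TPM at 48 h.

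After 24 h of darkness the genotype difference did not pass the test for either gene. PUF1 stood at 15.5, 7.10 and 10.5 TPM in tpt10b and at 6.07, 6.63 and 6.97 TPM in WT. Each tpt10b library was above each WT library, replicate 2 by a narrow margin. Such separation upward was found in 7.70% of all genes tested, and 5.76% were called higher. The log2 difference of PUF1 was 0.61 ± 0.27 (limma, adjusted p = 0.0807), with a 95% interval of 0.04 to 1.19. It passed the test after rescaling (0.94, adjusted p = 0.00576) and when tpt10b 24 h replicate 2 was left out (0.87, adjusted p = 0.0198). Without tpt10b 24 h replicate 1 the value was 0.36 (adjusted p = 0.326). The difference of PUF1 lay higher than that of 97.5% of all genes tested.

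PUF4 stood at 14.6, 6.41 and 8.82 TPM in tpt10b at 24 h and at 7.62, 7.71 and 8.55 TPM in WT. The groups overlapped: tpt10b replicate 2 was below every WT library and replicates 1 and 3 were above. The log2 difference was 0.22 ± 0.25 (limma, adjusted p = 0.507), with a 95% interval of -0.31 to 0.76. It was 0.55 after rescaling without passing the test, and it turned to -0.069 without tpt10b replicate 1. The difference of PUF4 lay higher than that of 87.0% of all genes tested.

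After 48 h the genotypes overlapped for both genes. PUF1 stood at 2.25, 2.18 and 2.47 TPM in tpt10b and at 1.99, 1.63 and 3.20 TPM in WT. PUF4 stood at 2.85, 3.24 and 4.02 TPM in tpt10b and at 3.64, 2.80 and 3.96 TPM in WT. For both genes the highest and lowest libraries of the 2 genotypes interleave. The log2 difference was 0.04 ± 0.27 for PUF1 (adjusted p = 0.940), with an interval of -0.53 to 0.61. For PUF4 it was -0.03 ± 0.25 (adjusted p = 0.949), with an interval of -0.57 to 0.50. The sign for PUF1 was negative after rescaling (-0.065), and neither value gives a direction. Of all genes tested, 5.20% were called higher and 1.39% lower at 48 h.

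Whether the genotype difference itself changed between 24 h and 48 h was tested as an interaction. Its value uses no 0 h library, but its standard error rests on the spread shared by all 18 libraries, the 0 h ones included. The interaction was -0.57 ± 0.38 for PUF1 (limma, adjusted p = 0.239) and -0.26 ± 0.36 for PUF4 (adjusted p = 0.588). With limma on the compared groups only, the adjusted p-values were 0.188 and 0.555. For PUF1 the interaction passed after rescaling (-1.01, adjusted p = 0.0256), and for PUF4 it was then -0.71 without passing (adjusted p = 0.0837). Without tpt10b 24 h replicate 1 it was -0.31 for PUF1 (adjusted p = 0.516) and 0.036 for PUF4 (adjusted p = 0.939). Without WT 48 h replicate 3 the PUF1 value was -0.38 (adjusted p = 0.456). Of all genes tested, 43.1% passed this interaction in either direction.

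On the second day of darkness both genes fell in both genotypes, in libraries that played no part in choosing them. The standard errors still rest on the spread shared by all 18 libraries, the 0 h ones included. With limma on the compared groups only, all of these falls passed as well (adjusted p up to 0.00438). In WT, PUF1 went from a mean of 6.56 ± 0.456 TPM at 24 h to 2.27 ± 0.822 at 48 h, a log2 difference of -1.23 ± 0.27 (limma, adjusted p = 0.00163). In tpt10b it went from 11 ± 4.23 to 2.30 ± 0.155 TPM, a difference of -1.81 ± 0.27 (adjusted p = 1.93e-05). Every 48 h library was below every 24 h library of the same genotype, a separation downward found in 29.1% of all genes in WT and 22.1% in tpt10b.

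PUF4 fell from 7.96 ± 0.512 to 3.47 ± 0.598 TPM in WT (-1.01 ± 0.25, adjusted p = 0.00439). In tpt10b it fell from 9.95 ± 4.22 to 3.37 ± 0.595 TPM (-1.27 ± 0.25, adjusted p = 3.29e-04), again with no overlap. All of these calls stayed with any library of the compared groups left out, at adjusted p-values up to 0.0195. In all genes tested, 24.7% were called lower from 24 h to 48 h in WT and 20.2% in tpt10b. The fall of PUF1 was exceeded by 1.98% of genes in WT and by 0.869% in tpt10b, and that of PUF4 by 4.36% and 3.16%.

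Against 0 h, values are given without a test because the 0 h libraries were used to choose the genes. The first day of darkness gave -1.65 for PUF1 and -1.25 for PUF4 in tpt10b on the log2 scale, and both days together gave -3.46 and -2.51. The tpt10b level at 48 h was 0.0649 times the 0 h level in TPM for PUF1 and 0.141 times for PUF4. In WT the first day gave -0.44 for PUF1 and 0.36 for PUF4, and both days together -1.67 and -0.65. The WT 24 h libraries overlapped the WT 0 h libraries for both genes.

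The order of the 6 groups was nearly shared. For PUF1 the mean TPM ran from tpt10b 0 h through tpt10b 24 h, WT 0 h, WT 24 h and tpt10b 48 h to WT 48 h. For PUF4 it ran from tpt10b 0 h through tpt10b 24 h, WT 24 h, WT 0 h and WT 48 h to tpt10b 48 h. Neighbours in this order did not overlap below tpt10b 0 h. For PUF1 the pair of 48 h groups also lay apart from the groups above them. For PUF4, WT 0 h, at its lowest 3.99 TPM, lay just above WT 48 h, at its highest 3.96 TPM, but overlapped tpt10b 48 h, which reached 4.02 TPM. All other neighbours overlapped. The level of PUF1 relative to PUF4 differed with time: the TPM ratio was 1.51 to 1.59 in WT and 1.38 to 1.59 in tpt10b at 0 h. At 24 h it was 0.796 to 0.861 in WT and 1.06 to 1.19 in tpt10b, and at 48 h 0.546 to 0.807 and 0.616 to 0.790. PUF1 thus had the higher TPM in every 0 h library and the lower TPM in every 48 h library, and at 24 h it had the lower TPM in WT only.

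Within groups, the replicates that were high for PUF1 were also high for PUF4. WT 0 h replicate 1 lay 0.70 above its group mean for PUF1 and 0.63 for PUF4 on the log2(TPM + 1) scale, and tpt10b 24 h replicate 1 lay 0.52 and 0.58 above. Replicate 2 of tpt10b at 24 h lay at -0.51 and -0.49. Across the 18 libraries these deviations from the group means gave Pearson r = 0.95 and Spearman rho = 0.87, and r = 0.90 over 16 libraries without the 2 with the largest PUF1 deviations. As a description, PUF4 ranked 8th among 14730 genes by this within-group correlation with PUF1, where the median gene had r = 0.23. The points share library, depth and the fixed total of TPM.

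**Figure D2:**
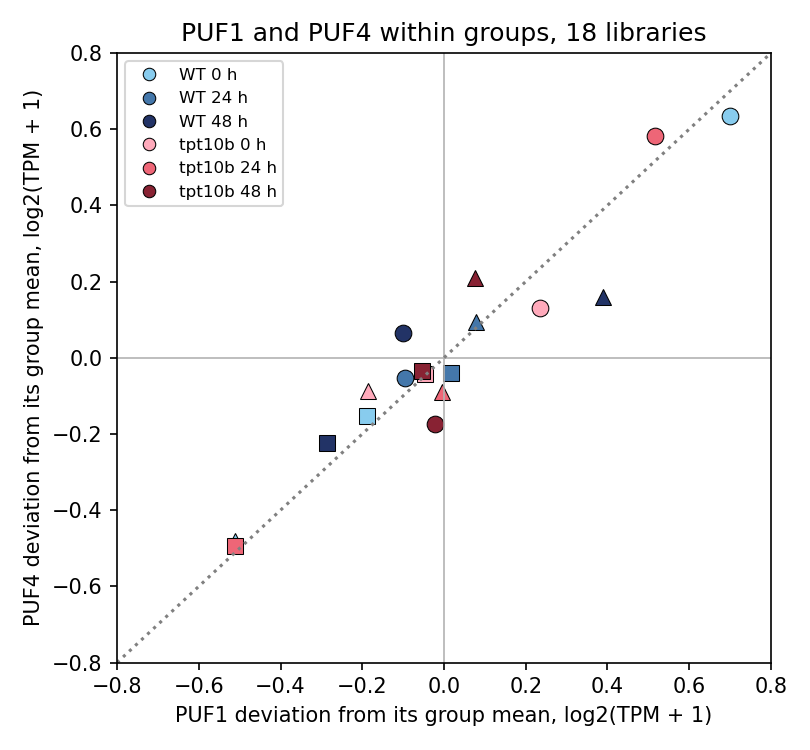
Deviation of each library from its group mean on the log2(TPM + 1) scale, PUF1 on the x axis and PUF4 on the y axis, 18 libraries coloured by group, with circles, squares and triangles for replicates 1, 2 and 3. The dotted line marks equal deviations. The points lie along it (r = 0.95), with WT 0 h replicate 1 and tpt10b 24 h replicate 1 farthest up.

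The genes most like PUF1 and PUF4 over the 18 libraries were sought by Pearson correlation of log2(TPM + 1), among the 3106 genes that carried a symbol and averaged 5 TPM or more. For PUF1 they were DAE1 (r = 0.99), RRM11 (0.99), NOP58 (0.98), CAH2 (0.98) and RPA1 (0.98). NOP58 is a core protein of the small nucleolar particles that guide ribosomal RNA methylation, and CAH2 is a periplasmic carbonic anhydrase. For PUF4 they were POB8 (r = 0.98), RRM11 (0.97), TIM50 (0.97), PUF1 (0.97) and NUP58 (0.96), of which TIM50 belongs to the mitochondrial protein import machinery and NUP58 to the nuclear pore. PUF4 was 11th for PUF1. The libraries come in 6 groups, so these values mostly describe shared group means and carry no test.

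NOP58 shows the likeness library by library, at a higher level. It stood at 108, 66.1 and 50.8 TPM in WT 0 h replicates 1 to 3, in the same order as PUF1 and PUF4. In tpt10b at 24 h it stood at 113, 42.8 and 78.1 TPM, again highest in replicate 1 and lowest in replicate 2. At 48 h its means were 12.8 TPM in WT and 13.9 in tpt10b.

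RRM11 (Cre12.g529500) and RPA1 (Cre12.g529600) carry locus numbers close to that of PUF1, and in the gene order of the RefSeq v5.5 assembly, a different build, they are 12 and 14 genes away. Of 18 tested genes within 10 positions of PUF1, 0 had r above 0.9 with it (range -0.74 to 0.87), where 4.41% of all genes did. The median r of these neighbours was 0.49, against 0.16 for all genes. Of 20 around PUF4, 1 did, Cre16.g649350 at 0.96, a locus without a symbol noted after its value was seen, where 2.72% of all genes did. Their median was -0.03, against 0.18. With so few neighbours, the numbers above 0.9 cannot be told from the shares of all genes. No other gene of that annotation overlaps PUF1 or PUF4.

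The other Pumilio genes followed courses that differed from these, PUF2 only in part. PUF3 stood at 10.8, 9.29 and 8.72 TPM in WT at 0 h, at 21.9, 23.6 and 26.0 at 24 h, and at 20.3, 14.8 and 23.2 at 48 h. In tpt10b it stood at 21.3, 19.3 and 18.9 TPM at 0 h, at 19.5, 16.1 and 18.7 at 24 h, and at 23.2, 23.0 and 23.7 at 48 h. PUF3 therefore rose in WT by 24 h (1.23 ± 0.14, limma, adjusted p = 5.78e-07), a direction in which 40.6% of all genes were called, while in tpt10b its change was -0.13 ± 0.14 (adjusted p = 0.411). After rescaling the WT rise was 0.96, and the tpt10b change turned to 0.47 and passed (adjusted p = 4.87e-04). The difference between these changes was -1.36 ± 0.20 (adjusted p = 5.71e-05), lower as for 57.9% of all genes, and -0.49 after rescaling (adjusted p = 0.0115).

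At 0 h the tpt10b level of PUF3 was the higher one (0.98 ± 0.14, adjusted p = 3.95e-05, and 0.46 after rescaling, adjusted p = 0.00209), a direction in which 50.8% of all genes were called. At 24 h it was lower in tpt10b (-0.38 ± 0.14, adjusted p = 0.0386), a call lost after rescaling (-0.03) and without replicate 2 or 3 of either genotype (adjusted p up to 0.134). On the second day it rose by 0.35 ± 0.14 in tpt10b (adjusted p = 0.0346), a call lost after rescaling (-0.0004) and without any of the 6 libraries but tpt10b 24 h replicate 1. In that direction 46.5% of all genes were called. In WT PUF3 changed by -0.30 without passing (limma, adjusted p = 0.0940), and by -0.15 after rescaling. It passed there without WT 48 h replicate 3 (adjusted p = 0.0259), and voom called 1 of PUF2 and PUF3 lower. Over 18 libraries the correlation of PUF3 with PUF1 was -0.13 and with PUF4 0.09. The within-group deviations of PUF3 gave 0.78 and 0.69, with ranks of 547 and 1301 among 14730 genes.

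PUF2 was the lowest of the 4 genes in most groups and was nearly lost in one. It stood at 4.40, 2.65 and 3.64 TPM in WT at 0 h, at 1.49, 2.84 and 1.67 at 24 h, and at 2.35, 0.827 and 2.71 at 48 h. In tpt10b it stood at 6.82, 6.38 and 5.50 TPM at 0 h, at 0.0228, 0.327 and 0.278 at 24 h, and at 2.17, 2.63 and 2.34 at 48 h. The tpt10b 24 h libraries held 10 to 136 reads of it, against at least 331 in every other library. At 24 h the tpt10b mean was 0.105 times that of WT in TPM, with a log2 difference of -1.29 ± 0.23 (limma, adjusted p = 4.53e-04, and -1.18 after rescaling), a scale that understates changes of low genes. Among all genes, 34.8% were called lower at 24 h, in the same libraries that had reads on fewer genes, whose part in this value was not tested.

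From 24 h to 48 h PUF2 rose in tpt10b by 1.49 ± 0.23 (limma, adjusted p = 2.41e-05, and 1.37 after rescaling), where PUF1 and PUF4 fell. In that direction 46.5% of all genes were called. In WT PUF2 changed by -0.06 (adjusted p = 0.867). The 0 h level was also higher in the mutant (0.68 ± 0.23, adjusted p = 0.0177), a call lost after rescaling (0.22) and, at 0 h, without replicate 2 of WT or replicate 1 of the mutant. Against 0 h PUF2 was lower at both dark times in both genotypes, as PUF1 was. In tpt10b it changed by -2.59 ± 0.23 by 24 h (limma, adjusted p = 2.56e-08) and -1.10 ± 0.23 by 48 h (adjusted p = 3.48e-04). In WT the changes were -0.61 ± 0.23 (adjusted p = 0.0254) and -0.67 ± 0.23 (adjusted p = 0.0149). All of these passed after rescaling. The medians of all genes were -0.53 and -0.20 in tpt10b and 0.21 and 0.09 in WT. At 48 h neither PUF2 (0.25, adjusted p = 0.496) nor PUF3 (0.27, adjusted p = 0.219) passed, in limma or voom, and 0 of 2 reached an unadjusted p of 0.05.

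**Figure D3:**
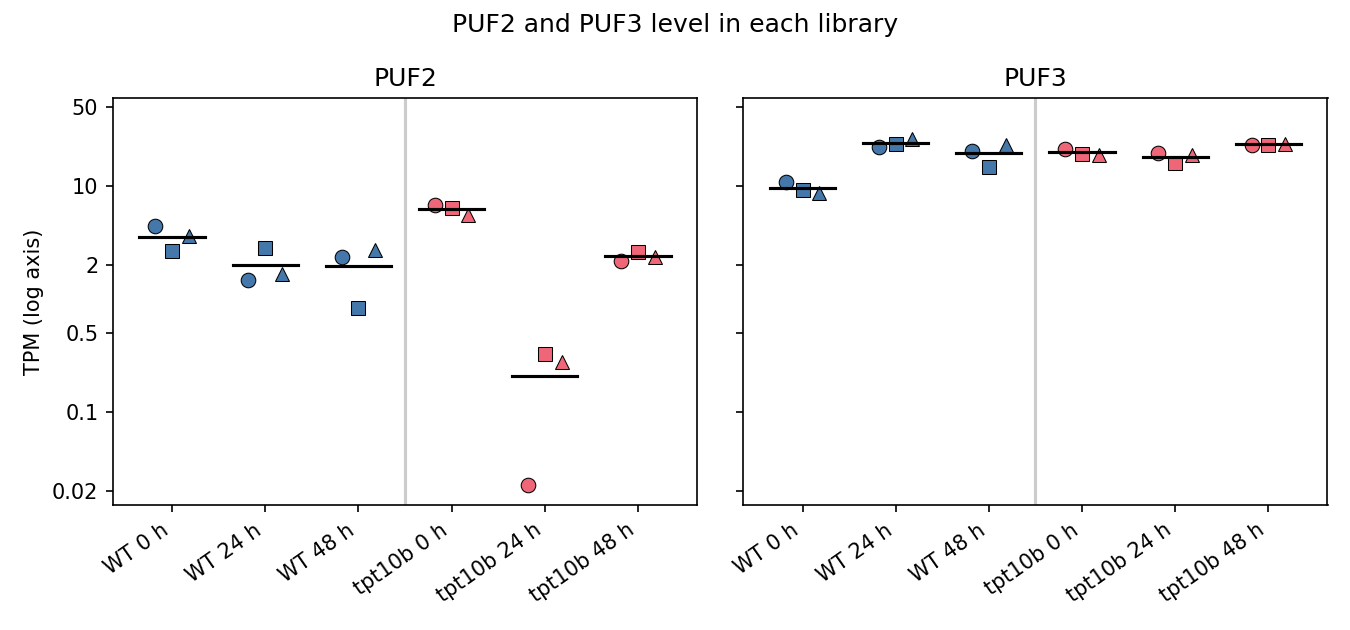
TPM of PUF2 (left) and PUF3 (right) on a log axis in each library, by genotype and hours of darkness, with WT in blue and tpt10b in red, circles, squares and triangles for replicates 1, 2 and 3, and lines at the mean of 3 libraries. PUF2 in tpt10b at 24 h lies between 0.0228 and 0.327 TPM, below every other library, and PUF3 is lowest in WT at 0 h.

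**Figure D4:**
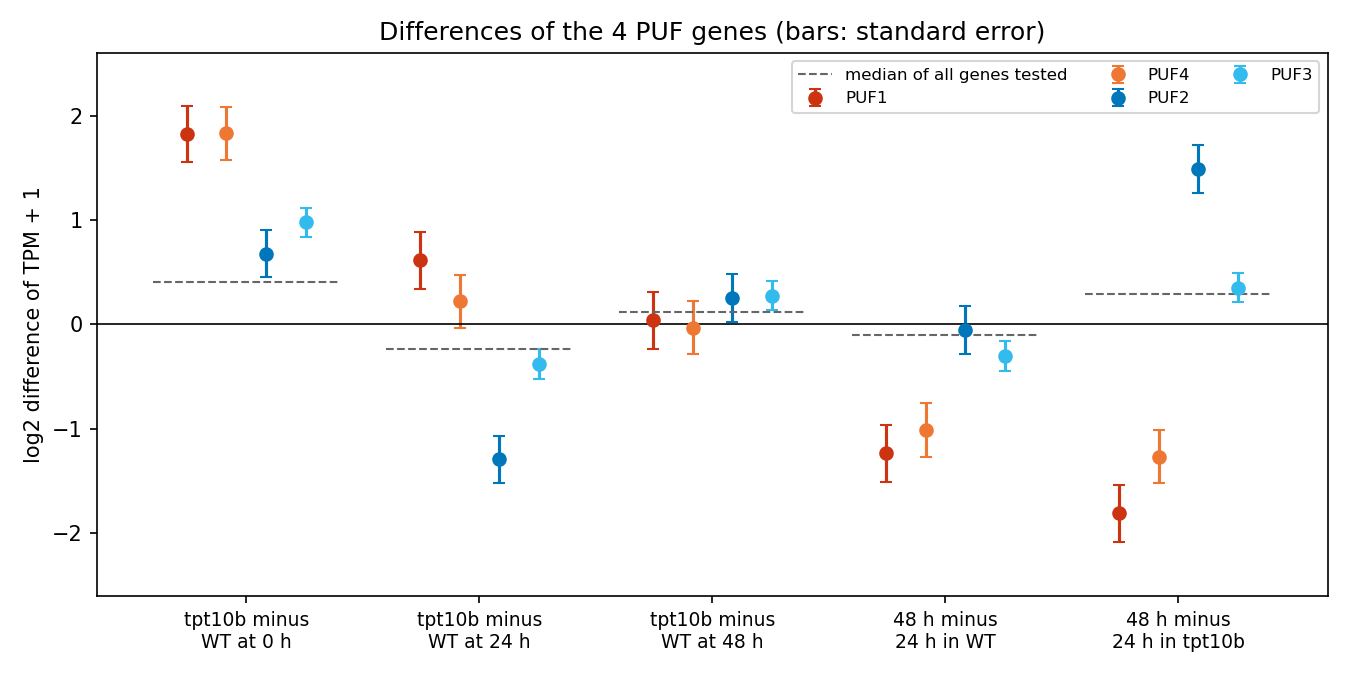
Log2 differences of TPM + 1 for the 4 PUF genes in 5 comparisons, with points for the fitted value, bars for the standard error and dashed lines for the median of all genes tested. PUF1 and PUF4 were chosen on the first comparison, and in the last 2 they lie at -1.01 to -1.81 while PUF2 and PUF3 lie between -0.30 and 1.49.

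Genes that work with Pumilio proteins or beside them were counted in lists by symbol. Ribosome biogenesis factors moved in the same direction as PUF1 and PUF4 on the second day of darkness. From 24 h to 48 h, 0 of 15 were higher and 12 lower in WT, where 24.7% of all genes were called lower, with a median of -0.87 against -0.10 for all genes. In tpt10b 0 were higher and 10 lower, where 20.2% of all genes were called lower, with a median of -1.23 against 0.29. After rescaling 12 and 13 were lower, and with single libraries left out 11 to 12 and 10 to 11. NOP58 changed by -1.64 ± 0.28 in WT and -2.30 ± 0.28 in tpt10b. No test is given for it, since it was named for its correlation with PUF1 over these same libraries. Within groups, 12 of the 15 had a correlation above 0.5 with PUF1 and 12 with PUF4, with medians of 0.68 and 0.77, a measure chosen after the data had been seen. Of all 14730 genes, 3402 and 3508 had one, with medians of 0.23 for both. The named regulators described below also lay high, with 3 of 3 above 0.5 and medians of 0.70 and 0.63.

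Translation initiation factors were more often called lower than higher on the second day. Of 25, 2 were higher and 16 lower in WT, and 10 lower without WT 24 h replicate 3. In tpt10b 5 were higher and 14 lower. After rescaling 2 were higher and 12 lower in WT, and 4 and 18 in tpt10b. The list medians were -0.49 in WT and -0.38 in tpt10b, against -0.10 and 0.29 for all genes. The shares of all genes were 16.8% higher and 24.7% lower in WT and 46.5% and 20.2% in tpt10b. The within-group correlation of the initiation factors with PUF1 had a median of 0.65. Of 10 genes of the exosome and nonsense-mediated decay, which degrade RNA from the 3′ end and remove faulty messages, 0 were higher and 4 lower in WT, and 2 higher and 5 lower in tpt10b, against the same shares of all genes. Within groups, the exosome list had a median correlation of 0.45 with PUF1 and 0.46 with PUF4. The exosome and ribosome biogenesis lists share 5 genes.

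Deadenylation, decapping and 5′ decay genes did not follow PUF1 and PUF4 down. From 24 h to 48 h, 3 of 13 were higher and 1 lower in WT, where 16.8% of all genes were called higher and 24.7% lower. In tpt10b 9 were higher and 1 lower, against 46.5% and 20.2%. After rescaling the tpt10b numbers were 7 and 2. Within groups, 6 of the 13 had a correlation above 0.5 with PUF1 and 6 with PUF4, with medians of 0.48 and 0.50 against 0.23 for all genes. Of 7 small RNA genes, 1 was higher and 1 lower in WT, and 5 were higher and 1 lower in tpt10b, against the same shares of all genes. Of 3 named RNA-binding regulators, NAB1 and the CHLAMY1 subunits CRB1 and CRB3, 1 was higher and 1 lower in each genotype.

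**Figure D5:**
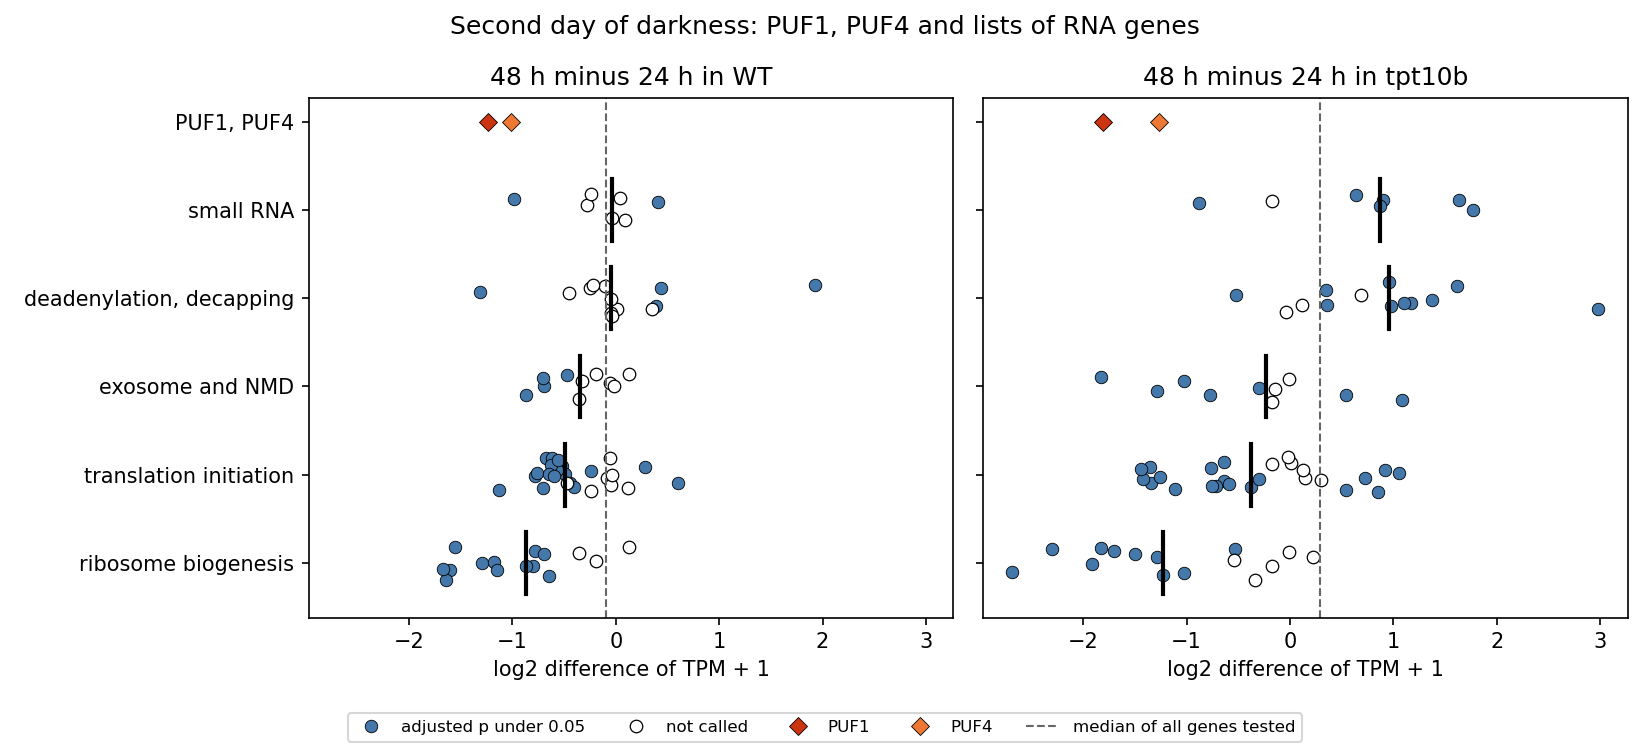
Log2 difference of TPM + 1 from 24 h to 48 h in WT (left) and tpt10b (right) for PUF1, PUF4 and the genes of 5 lists, 1 point per gene, filled where limma gave an adjusted p under 0.05, with vertical bars at list medians and a dashed line at the median of all genes. Vertical scatter within a list has no meaning. The ribosome biogenesis medians lie at -0.87 and -1.23, and the deadenylation medians at -0.05 and 0.96.

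Between genotypes at 0 h, 50.8% of all genes were called higher in tpt10b and 9.19% lower. In the lists the numbers higher were 14 of 15 for ribosome biogenesis, 11 of 13 for deadenylation and decapping, 9 of 10 for exosome and nonsense-mediated decay, 21 of 25 for translation initiation and 4 of 7 for small RNA, with 1 of 3 for the named regulators. None was lower. After rescaling the numbers higher were 6, 1, 3, 2, 0 and 1, and 3 initiation, 1 small RNA and 2 regulator genes were lower. Without WT 0 h replicate 2 and without rescaling, 10 ribosome biogenesis, 8 deadenylation and decapping, 16 initiation and 2 small RNA genes were higher. For exosome and nonsense-mediated decay 7 were higher without tpt10b 0 h replicate 1.

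At 24 h, 5.76% of all genes were called higher in tpt10b and 34.8% lower. For ribosome biogenesis 5 were higher in tpt10b and 1 lower (rescaled 9 and 1, and only 1 higher with WT 24 h replicate 2 left out), with RRP7, a factor of ribosomal RNA processing, at 1.37 ± 0.27 and NOP14 at -0.87 ± 0.23. For deadenylation and decapping 1 was higher and 8 lower (3 and 4 after rescaling, 5 lower without tpt10b 24 h replicate 3), with the exoribonuclease genes XRN2 at -1.34 ± 0.25 and XRN1 at -0.77 ± 0.16. For exosome and nonsense-mediated decay 4 were higher and 3 lower (rescaled 5 and 1, and only 1 higher with WT 24 h replicate 2 left out), with UPF3 at -0.95 ± 0.19 and CSL4 at 0.63 ± 0.13. For small RNA 0 were higher and 5 lower (2 and 3 after rescaling), with the argonaute AGO3 at -1.5 ± 0.27 and MUT68 at -0.56 ± 0.13, the latter without a call after rescaling (-0.26). For initiation 1 was higher and 5 lower (rescaled 13 and 2, and 4 higher with tpt10b 24 h replicate 2 left out), with EIF5B1 at -1.08 ± 0.18 and EIF3A at -0.91 ± 0.21. Of the 3 named regulators 0 passed in limma or voom, 0 reached an unadjusted p of 0.05, and 2 were higher after rescaling.

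At 48 h, 5.20% of all genes were called higher in tpt10b and 1.39% lower. The calls in the lists were PAN2, a deadenylase subunit (0.62 ± 0.13, adjusted p = 0.0119), and NAB1, a repressor of antenna protein translation in Chlamydomonas (0.55 ± 0.10, adjusted p = 0.00622), both higher in tpt10b. The exosome gene RRP40 (-0.61 ± 0.18, adjusted p = 0.0468) and the initiation factor genes EIF2A (-0.60 ± 0.15, adjusted p = 0.0255) and EIF3X (-0.59 ± 0.15, adjusted p = 0.0312) were lower. NAB1 kept its call with any of the 6 libraries left out. The call of PAN2 was lost without any of 3 of them (WT replicate 2, tpt10b replicates 1 and 3), that of RRP40 without any of 4 (WT replicate 3 or any tpt10b library), and those of EIF2A and EIF3X without any but WT replicate 1. Of 7 small RNA genes 0 passed in limma or voom, with 2 at an unadjusted p under 0.05.

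Gametic and zygotic genes served as markers of other cell states. Of 26 such genes, 1 to 4 were at 0 in each library, the plus gamete gene FUS1 in all of them, and the regulator gene GSM1 reached at most 0.0971 TPM. FUS1 belongs to the plus mating type, and the mating type of the strain was not tested. Its value of 0 therefore gives no reading of cell state. Others were not silent: HAP2 ran from 0.312 to 9.29 TPM over the libraries and GSP1 from 0.711 to 11.3. The summed level of the 26 genes was 926 to 1162 TPM in WT and 1020 to 1217 in tpt10b at 0 h, 1181 to 1329 and 1243 to 1445 at 24 h, and 1912 to 2154 and 2632 to 2707 at 48 h. The sum was thus highest at 48 h, where PUF1 and PUF4 were lowest, and its part in those values was not tested. The members went both ways. Of 22 tested, tpt10b had 7 higher and 4 lower before darkness, where 50.8% and 9.19% of all genes were called, and 0 and 6 after rescaling. After 24 h it had 2 higher and 5 lower, against 5.76% and 34.8% of all genes, and 8 and 5 after rescaling. After 48 h it had 2 higher and 0 lower, against 5.20% and 1.39%, with 0 and 1 after rescaling and 0 higher when WT 48 h replicate 2 was left out. On the second day 6 were higher and 4 lower in WT, against 16.8% and 24.7% of all genes, with 9 and 3 after rescaling and 3 higher when WT 24 h replicate 1 was left out. In tpt10b 11 were higher and 5 lower, near the 46.5% and 20.2% of all genes, and 7 and 7 after rescaling.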

How the data were processed

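Total RNA was treated with DNase and primed with random hexamers, per the labels' protocols. The authors deposited gene-level TPM, which adds to 1000000 in each library, with gene lengths. HISAT2 2.0.5 and StringTie 1.3.3b are named in the submitters' processing notes without a role, and the annotation is CC-4532 v6.1 per the file headers. The counting tool and strandedness are not given in the sources used here, so reads of a gene and an antisense partner cannot be told apart. Groups and replicate numbers came from the sample titles; for tpt10b at 48 h the descriptions number replicates differently, and a batch behind this could not be told apart from that group. Titles call the replicates biological, but nothing says that cultures were grown separately. The p-values therefore set differences against the spread between these samples, shared over all 6 groups, and may not hold for separate cultures.

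Genes with at least 1 TPM in at least 3 libraries were kept. Values were log2(TPM + 1), so fold changes of low genes are understated. A limma fit (version 3.58.1, R 4.3.3) held a mean for each group over all 18 libraries and a variance trend. Benjamini-Hochberg adjustment was made separately for each contrast, with a threshold of 0.05. The product of TPM and length, times a constant for each library, lay less than 0.01 from whole reads in 100% of genes. The depth gives counting precision only. The script was tested on simulated data.

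PUF1, PUF4, the lists and the tests were chosen with earlier results of these data known. Named besides these are the other PUF genes, the 5 genes most correlated with each, the genes at the edge of the 10 largest rises, and up to 2 passing genes per list at 24 h and at 48 h with the smallest adjusted p; the plan allowed up to 4. The alternatives changed the pseudocount (0.1 or 5), the filter (none, or an average of 5 TPM), the scaling (median-of-ratios or quantile), the variance prior (robust), the libraries fitted (compared groups only, or 1 library left out) and the model (replicate number as a block, or limma-voom on recovered reads). Voom with median-of-ratios factors and list numbers with each library left out were added after the data were seen. Python 3.11.15, pandas 2.3.3 and matplotlib 3.10.9 were used. All libraries entered the test, and no sequences were used here.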

Additional observations from a re-analysis of the deposited data

Results flagged for a closer look

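For 17 genes named above, the difference between tpt10b and WT at 48 h was not the same as at 24 h by the interaction test (limma, adjusted p under the threshold of 0.05). On the log2 scale PUF2 changed by 1.55 ± 0.32 (adjusted p = 0.00143) and PUF3 by 0.65 ± 0.20 (adjusted p = 0.0140). Positive values were also found for XRN2 (1.87), XRN1 (1.15), PAN2 (1.06), UPF3 (1.10), NAB1 (0.47), NOP14 (1.01), AGO3 (2.01), MUT68 (0.78), EIF3A (1.29) and EIF5B1 (1.32). Negative values were found for CSL4 (-0.72), RRP40 (-0.96), RRP7 (-1.51), EIF2A (-0.95) and EIF3X (-1.01). The lists held 17 genes named for passing at 24 h or 48 h, PUF2 and PUF3 also as family members, and all 17 passed here. Those contrasts are the parts of the interaction, so this number was largely set by the choice of genes. Of all genes, 43.1% passed the interaction, a share that does not correct for that choice. After rescaling 4 of the 17 no longer passed: PUF3 (0.15), NAB1 (-0.05, with the sign turned), NOP14 (0.68) and MUT68 (0.34). PUF1 and PUF4 did not pass, and PUF1 passed after rescaling (-1.01).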

How the results depend on the processing

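The falls of PUF1 and PUF4 from 24 h to 48 h passed in both genotypes under all 17 alternatives of each. The 0 h differences, which chose the genes, were lowest after rescaling (1.3 and 1.32) and ran from 1.57 to 2.17 for PUF1 and 1.59 to 2.15 for PUF4 with single libraries left out. For PUF1 at 24 h the call was gained after rescaling (0.94), quantile normalisation (0.92), voom (0.82) and voom with median-of-ratios factors (1.04), and leaving out libraries gave 0.36 to 0.87. For PUF4 at 24 h they gave -0.069 to 0.47. At 48 h PUF1 turned to -0.065 after rescaling, -0.10 after quantile normalisation, -0.032 with voom and -0.073 with voom and those factors, and ranged from -0.10 to 0.23 with libraries left out, PUF4 from -0.14 to 0.054. The interaction of PUF1 passed after rescaling (-1.01) and quantile normalisation (-1.02), and ran from -0.83 to -0.31 with libraries left out, that of PUF4 from -0.50 to 0.036 with libraries left out. The cause was not tested. Numbers of genes called fell from 5980 to 3448 at 24 h, 6115 to 4044 in WT and 9820 to 5991 in tpt10b on the second day, and 6344 to 3752 for the interaction, with the stricter filter on an average of 5 TPM, which tests fewer genes. At 48 h 971 were called, 484 and 1571 with pseudocounts of 0.1 and 5, 136 with the compared groups only, and 246 to 2845 with libraries left out. Replicate numbers did not pair the libraries: 6 of 45 correlations between same-numbered libraries were above 0.1, and with a replicate block the PUF1 value at 24 h stayed at 0.61 (adjusted p = 0.0674), that of PUF4 at 0.22, and 5703 genes were called. The intervals at 48 h come from the spread shared by all 18 libraries, not from that of the 48 h libraries alone. With the compared groups only, the standard errors at 48 h were 0.19 for PUF1 and 0.16 for PUF4. Each library held 350 or more reads of PUF1 and of PUF4.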
